A study of Homo sapiens with 18 samples.

Results

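The enzymes that write, copy, read and remove DNA methylation were followed as a group of 9 genes in a pair of lymphoma cell lines treated with JIB-04, a small molecule known as an inhibitor of Jumonji histone demethylases. The genes were DNMT1, DNMT3A, DNMT3B, UHRF1, HELLS, TET1, TET2, TET3 and MBD2. They are a list of gene names with no threshold on a value, drawn up with earlier results of these data known, and all 9 were found among the 23686 gene symbols of the deposited tables. OCI-Ly1 and TMD8 are established human diffuse large B-cell lymphoma lines, and the labels name no genetic change in either. In each line 1 group received 0.01% DMSO as the vehicle, 1 group received 150 nM JIB-04 and 1 group received 500 nM JIB-04, with 3 RNA-seq libraries per group and 18 in all. The labels call the libraries technical triplicates and do not say whether separate cultures stood behind them, so the p-values below measure only the spread between these libraries. The duration of treatment was not given in the sources used here. The culture medium also differed (IMDM for OCI-Ly1, RPMI for TMD8), so line and medium cannot be told apart.

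In vertebrates DNA methylation is placed on cytosines of CpG pairs. DNMT1 copies the pattern onto the new strand after replication, guided by UHRF1, which binds hemimethylated CpG sites, and helped by the chromatin remodeler HELLS, while DNMT3A and DNMT3B methylate unmodified sites. TET1, TET2 and TET3 oxidise the methyl group in reactions that need iron and 2-oxoglutarate, the cofactors that Jumonji demethylases also use. MBD2 binds methylated CpG and brings the NuRD repressor complex. In the B-cell lineage DNMT1 is known for high expression in dividing germinal-centre cells, and TET2 and DNMT3A are recurrently mutated in blood cancers.

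DNMT1, UHRF1 and HELLS are shown by sequence because these 3 maintenance genes fell together in TMD8 and are known to be transcribed in dividing cells. Each run below holds 150 bases before and 30 bases after a transcription start in RefSeq, build GRCh38.p14, read 5′ to 3′ on the gene's strand. Capitals mark an E2F-type motif, here any of TTTCCCGC, TTTCGCGC, TTTGCCGC and TTTGGCGC on either strand. E2F proteins are the transcription factors of S-phase genes.
DNMT1 (chr19:10194924-10195103, minus strand): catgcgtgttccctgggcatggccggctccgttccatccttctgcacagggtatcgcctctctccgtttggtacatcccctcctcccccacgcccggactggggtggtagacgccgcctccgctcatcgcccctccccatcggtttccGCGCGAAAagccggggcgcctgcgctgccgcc
UHRF1 (chr19:4909351-4909530, plus strand): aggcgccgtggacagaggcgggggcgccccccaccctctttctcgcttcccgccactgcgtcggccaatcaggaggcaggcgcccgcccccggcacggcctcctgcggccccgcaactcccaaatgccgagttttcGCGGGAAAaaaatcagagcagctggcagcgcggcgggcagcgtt
HELLS (chr10:94545638-94545817, plus strand): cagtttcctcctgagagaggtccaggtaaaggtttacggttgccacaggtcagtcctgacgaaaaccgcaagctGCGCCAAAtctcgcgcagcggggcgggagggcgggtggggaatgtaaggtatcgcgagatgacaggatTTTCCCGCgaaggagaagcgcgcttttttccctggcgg
The RefSeq table held 20 promoter windows of 300 bases for the 9 genes, and all 9 genes matched it. The motif was found in 4 of the 20 windows, which belonged to 3 genes. These were the DNMT1 window, the HELLS window with 2 matches, and 2 of the 3 windows of UHRF1. No match lay in the windows of DNMT3A, DNMT3B, TET1, TET2, TET3 or MBD2. Of these, DNMT3B and MBD2 also fell in TMD8 at both doses, so a fall there did not go with a match in every gene. Among all 35116 RefSeq windows, 3.31% held the motif, and 3.99% of 27305 genes held it in at least 1 window. The motif was chosen after the values were seen, the counts do not tell which of several starts was used, and a match is a description of letters and not of binding.

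Summed over genes, the OCI-Ly1 libraries held 17579732 to 32651115 estimated counts each, and those of TMD8 9550092 to 20509500. The B-cell markers CD79A, CD79B, MS4A1, PAX5 and CD22 were all above 1 TPM in both lines. The 4 myeloid markers, CD14 among them, were all below 1 TPM in both lines, with sums of 0.805 to 1.53 TPM in OCI-Ly1 and 0.503 to 1.25 TPM in TMD8. The 4 T-cell markers summed to 12.2 to 29.4 TPM in OCI-Ly1 and 1.48 to 2.13 TPM in TMD8. CD3E and CD8A were below 1 TPM in both lines, but in OCI-Ly1 CD3G had a mean of 11.4 TPM and CD3D of 8.32 TPM. In TMD8 CD3G had 1.3 TPM and CD3D 0.0488 TPM. The 4 epithelial markers summed to 15.6 to 19.8 TPM in OCI-Ly1 and 14.4 to 18.8 TPM in TMD8. Of these KRT8, KRT18 and CDH1 had means above 1 TPM in both lines, with 8.39 TPM of CDH1 and 5.83 TPM of KRT8 in TMD8. EPCAM had 3.75 TPM in OCI-Ly1 and was below 1 TPM in TMD8. The 4 fibroblast markers summed to at most 0.374 TPM in OCI-Ly1 and at most 2.98 TPM in TMD8, where COL1A1 had a mean of 1.47 TPM. All 12 mitotic genes of a list that includes PLK1 and CCNB1 were called lower at 500 nM in both lines. In bulk RNA, fewer cells in a state and less RNA per cell cannot be told apart.

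Levels between genes are compared here in TPM (a depth-scaled share of transcripts, corrected for their length), and levels of 1 gene between groups in CPM (depth-scaled counts after TMM normalisation within a line). In the DMSO libraries the maintenance genes were the most abundant of the 9 in both lines, and TET1 was the least abundant. OCI-Ly1 with DMSO held 128 ± 3.25 TPM of DNMT1 (mean ± SD, n = 3, as for the TPM means that follow). Below it came UHRF1 with 86.6 ± 2.58 TPM, HELLS with 44.7 ± 3.91 TPM and MBD2 with 33.9 ± 3.64 TPM. The lower end was DNMT3B with 11.2 ± 0.801 TPM, TET2 with 8.65 ± 0.997 TPM, DNMT3A with 4.55 ± 0.419 TPM, TET3 with 3.75 ± 0.226 TPM and TET1 with 0.612 ± 0.0819 TPM. In this order no neighbours overlapped in their range over the 3 libraries.

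TMD8 had another order below the maintenance genes, with TET2 and DNMT3A ahead of DNMT3B. Its DMSO libraries held 45.2 ± 5.71 TPM of DNMT1, 38 ± 4.32 TPM of UHRF1 and 33.2 ± 4.77 TPM of HELLS. TET2 followed with 20.7 ± 3.13 TPM, MBD2 with 19.1 ± 3.62 TPM and DNMT3A with 14.2 ± 0.86 TPM. TET3 stood at 7.75 ± 0.596 TPM, DNMT3B at 1.75 ± 0.35 TPM and TET1 at 0.388 ± 0.042 TPM. Here the ranges of DNMT1 and UHRF1, of UHRF1 and HELLS, and of TET2 and MBD2 overlapped between libraries. Within each single DMSO library, however, DNMT1 lay above UHRF1, UHRF1 above HELLS, and TET2 above MBD2. At 500 nM JIB-04 the TMD8 libraries had MBD2 at 11.7 ± 1.22 TPM, DNMT3A at 10.4 ± 0.678 TPM and TET3 at 9.93 ± 0.784 TPM. The ranges of MBD2 and DNMT3A and of DNMT3A and TET3 overlapped between libraries, but each single library kept this order. In OCI-Ly1 at 500 nM, DNMT3B with 11.9 ± 1.03 TPM and TET2 with 10.9 ± 0.355 TPM overlapped, which they had not done with DMSO.

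**Figure D1:**
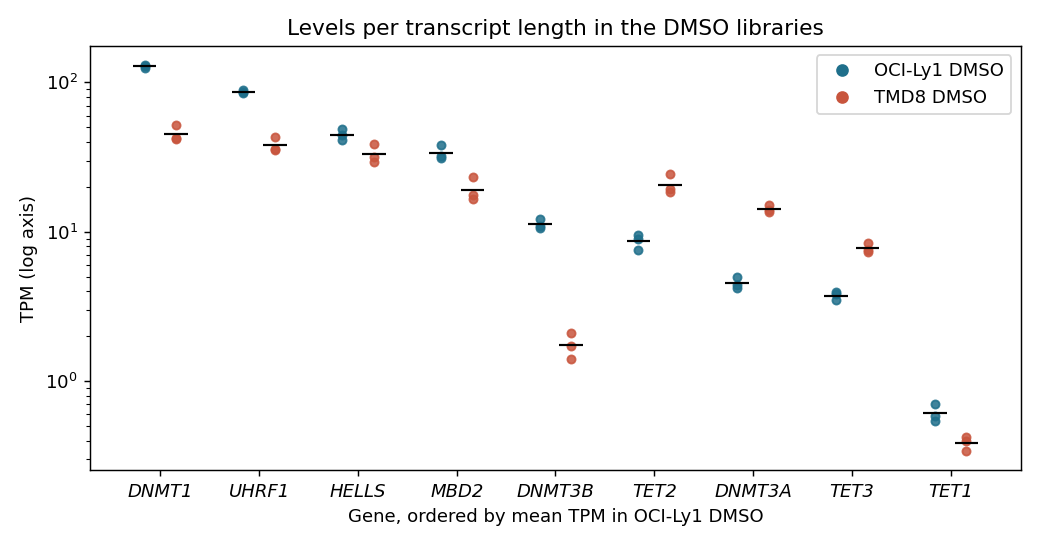
TPM of the 9 genes in the DMSO libraries of OCI-Ly1 (blue) and TMD8 (red), on a log axis; points are single libraries and bars the mean of 3. DNMT1 leads in both lines, and DNMT3B lies lower in TMD8 while TET2, DNMT3A and TET3 lie higher there.

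The vehicle-treated lines were compared in a fit of all 18 libraries, and here and throughout a call means an adjusted p below 0.05. Of the 9 genes 3 were called higher in OCI-Ly1 and 4 lower, against 37.8% and 39.0% of all 16604 genes tested. DNMT3A, a de novo enzyme, was lower in OCI-Ly1 with a log2 fold change of -2.62 (SE 0.069, adjusted p = 7.9e-23). TET2 and TET3 were lower in OCI-Ly1 by log2 fold changes of -2.25 (SE 0.063, adjusted p = 2.9e-22) and -2.02 (SE 0.066, adjusted p = 1.2e-20). DNMT3B, the other de novo enzyme, went the opposite way and was higher in OCI-Ly1 with a log2 fold change of 1.70 (SE 0.11, adjusted p = 2.7e-14). DNMT1 and UHRF1 were higher in OCI-Ly1 by 0.54 (SE 0.051, adjusted p = 2.1e-10) and 0.22 (SE 0.049, adjusted p = 0.00019) on the log2 scale. These 6 genes kept direction and call under all 14 alternatives, but the size of the difference depended on the scale. Over the alternatives it ran from -2.68 to -1.45 for DNMT3A, -2.29 to -1.17 for TET2 and -2.06 to -0.88 for TET3. For DNMT3B it ran from 1.44 to 2.63, for DNMT1 from 0.51 to 1.51 and for UHRF1 from 0.19 to 1.19. HELLS was called lower in OCI-Ly1 on the count scale, at -0.53 (SE 0.064, adjusted p = 2.1e-08), but its direction turned on log2(TPM + 1), at 0.42 (adjusted p = 0.00087). TET1 at -0.32 (95% interval -0.65 to 0.012, adjusted p = 0.074) and MBD2 at -0.14 (95% interval -0.29 to 0.0063, adjusted p = 0.076) were not called, and on log2(TPM + 1) they were higher in OCI-Ly1 at 0.21 and 0.80. On counts MBD2 was called lower with no filter (adjusted p = 0.039), with the replicate block (-0.26, adjusted p = 0.0033) and without OCI-Ly1 DMSO replicate 3 (adjusted p = 0.0098) or TMD8 DMSO replicate 2 or 3 (adjusted p = 0.04 and 0.031). TET1 was called lower without OCI-Ly1 DMSO replicate 2 (-0.43, adjusted p = 0.028) and on median-centred TPM (-0.51). On log2(TPM + 1) the median of all genes lay at 0.61, and 6 of the 9 genes were called higher and 3 lower. On median-centred TPM 3 were called higher and 5 lower.

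The dose comparisons of a line share their libraries: both JIB-04 groups are set against the same 3 DMSO libraries. In OCI-Ly1 at 150 nM none of the 9 genes was called by edgeR, against 0.748% of 15638 genes called higher and 0.141% called lower. TET3 alone had an unadjusted p under 0.05 there, and DESeq2 and limma on TPM also called 0 of the 9. At 500 nM 4 of the 9 were called higher in OCI-Ly1 (DNMT3A, HELLS, TET2 and TET3) and 1 lower (MBD2), against 27.7% higher and 25.9% lower over all genes. The share called higher was above the background and the share called lower below it. With library size as the only scaling, or on log2(TPM + 1), the split was 5 higher and 0 lower, and on median-centred TPM 1 higher and 2 lower. It was 1 higher and 1 lower without 500 nM replicate 3, and 2 higher and 1 lower without 500 nM replicate 1 or DMSO replicate 2.

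In TMD8 5 of the 9 genes were called lower at 150 nM (DNMT1, DNMT3B, UHRF1, HELLS and MBD2) and 2 higher (TET1 and TET3), against 25.0% lower and 19.2% higher over 15363 genes tested. That split was 1 higher and 5 lower with DESeq2 and on median-centred TPM, 3 higher and 4 lower with library size only, and 0 higher and 4 lower on log2(TPM + 1). At 500 nM the same 5 genes were called lower and TET3 higher, against 30.7% and 29.9% of all genes, so the share called lower was above the background at both doses. The 500 nM split was 1 higher and 4 lower with library size only, 1 and 7 on log2(TPM + 1), and 2 and 6 on median-centred TPM. The median log2 fold change of the 9 genes at 500 nM was -0.20 in TMD8, where all genes had 0.041, and 0.04 in OCI-Ly1, where all genes had -0.0033. Over all genes the share of called genes that were higher at 500 nM also moved with the scale. It was 51.6% on counts, 71.9% on log2(TPM + 1) and 32.3% on median-centred TPM in OCI-Ly1, and in TMD8 49.3%, 18.8% and 48.3%.

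**Figure D2:**
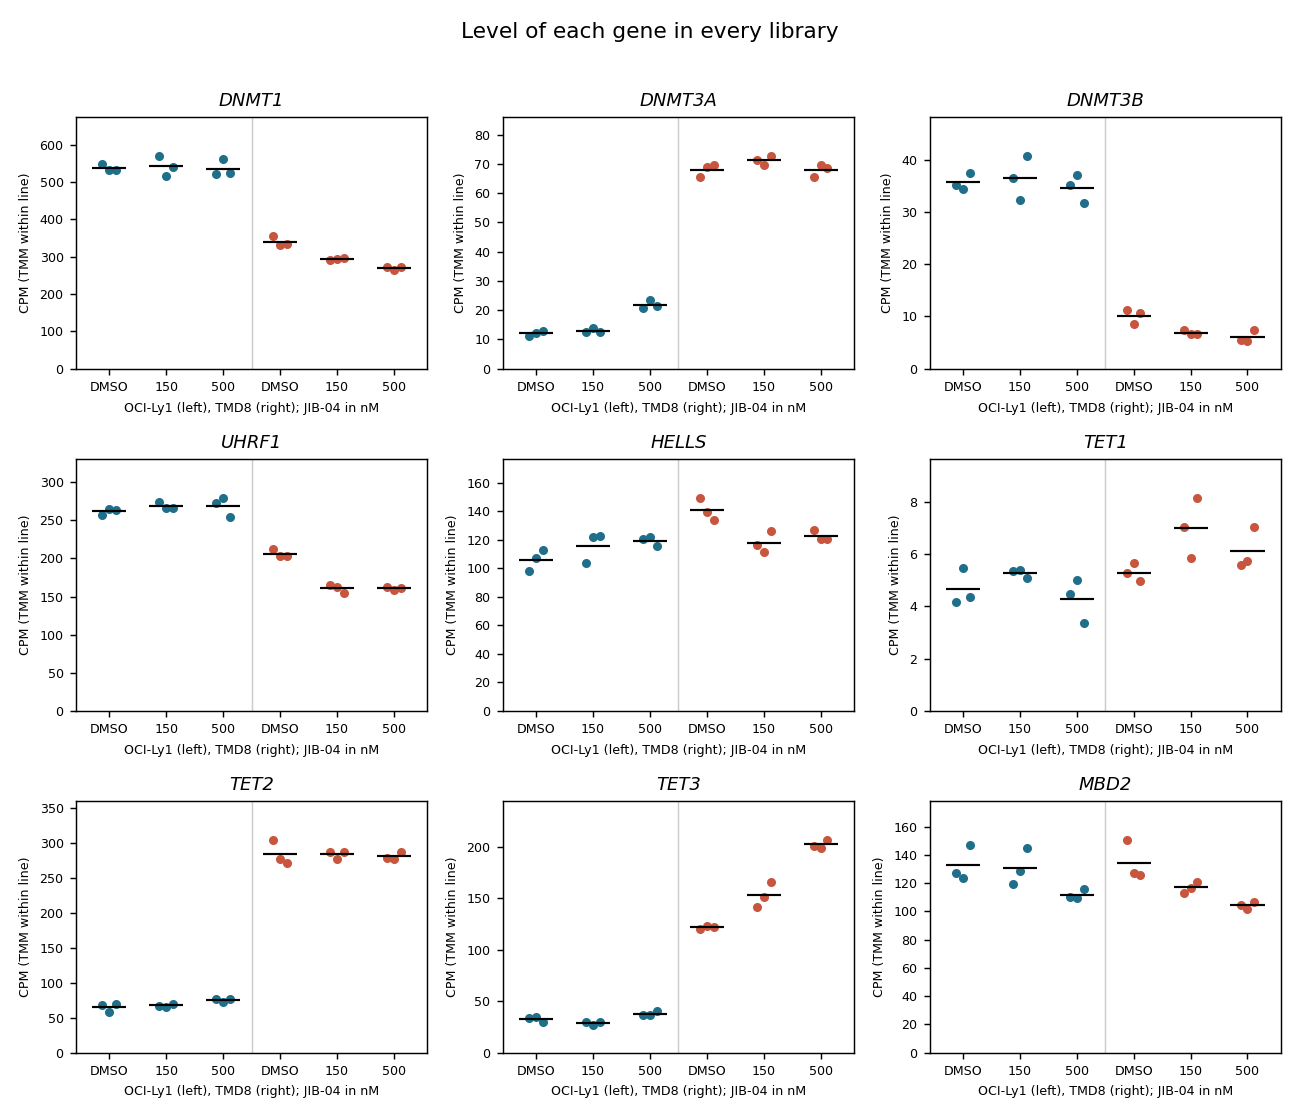
CPM (TMM within line) of each of the 9 genes in all 18 libraries, with OCI-Ly1 on the left of each panel and TMD8 on the right; points are libraries, bars are means of 3, every axis starts at 0, and levels are scaled within each line only. TET3 in TMD8 and DNMT3A in OCI-Ly1 rise at 500 nM, and DNMT1, DNMT3B, UHRF1 and MBD2 fall in TMD8.

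DNMT1, the maintenance methyltransferase, fell with dose in TMD8 and had nearly level values in OCI-Ly1. The OCI-Ly1 libraries held 547, 533 and 533 CPM with DMSO, 571, 516 and 539 CPM at 150 nM and 521, 562 and 524 CPM at 500 nM. The TMD8 libraries held 355, 331 and 334 CPM with DMSO, 292, 295 and 296 CPM at 150 nM and 271, 264 and 273 CPM at 500 nM. All 3 groups overlapped in OCI-Ly1, while in TMD8 each dose lay below the group before it with no overlap. In TMD8 the fall passed the test at 150 nM (log2 fold change -0.21, SE 0.044, adjusted p = 0.00092) and at 500 nM (log2 fold change -0.34, SE 0.045, adjusted p = 3.9e-06). For OCI-Ly1 the change at 500 nM was -0.0051 (95% interval -0.11 to 0.10, adjusted p = 0.94) on the log2 scale. 

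UHRF1, the reader of hemimethylated CpG that brings DNMT1 to replicated DNA, fell in TMD8 at the lower dose and was no lower at the higher one. Its OCI-Ly1 libraries held 258, 265 and 263 CPM with DMSO, 274, 267 and 267 CPM at 150 nM and 273, 280.1 and 255 CPM at 500 nM. Its TMD8 libraries held 212, 203 and 203 CPM with DMSO, 166, 163 and 155 CPM at 150 nM and 163, 159 and 162 CPM at 500 nM. Every treated TMD8 library lay below every TMD8 DMSO library, and the treated groups overlapped each other. In TMD8 the log2 fold change was -0.36 (SE 0.045, adjusted p = 6.4e-06) at 150 nM and -0.35 (SE 0.045, adjusted p = 2.3e-06) at 500 nM. Between the doses it was 0.0012 (95% interval -0.10 to 0.10, adjusted p = 0.99). In OCI-Ly1 UHRF1 was not called at 500 nM, at 0.04 (95% interval -0.061 to 0.14, adjusted p = 0.5), but it was called higher with library size as the only scaling (0.13, adjusted p = 0.026) and on log2(TPM + 1) (0.18, adjusted p = 0.014).

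HELLS, the remodeler that helps methylation reach packed chromatin, moved in opposite directions in the lines. OCI-Ly1 gave 98.2, 107 and 113 CPM with DMSO, 103, 122 and 122 CPM at 150 nM and 121, 122 and 116 CPM at 500 nM. TMD8 gave 149.7, 139.7 and 134 CPM with DMSO, 116, 112 and 126 CPM at 150 nM and 127, 121 and 120.4 CPM at 500 nM. In OCI-Ly1 the 500 nM libraries lay above the DMSO libraries by a narrow margin, and in TMD8 all treated libraries lay below the DMSO libraries. The TMD8 log2 fold change was -0.25 (SE 0.054, adjusted p = 0.001) at 150 nM and -0.20 (SE 0.055, adjusted p = 0.0042) at 500 nM, and the latter was lost with library size as the only scaling (-0.11, adjusted p = 0.083). The OCI-Ly1 rise at 500 nM was small (log2 fold change 0.17, SE 0.069, adjusted p = 0.043). It was no longer called without DMSO replicate 1 (adjusted p = 0.22), without DMSO replicate 2 (adjusted p = 0.087), or without any 1 of the 3 libraries at 500 nM (adjusted p = 0.12, 0.13 and 0.054), nor on median-centred TPM (adjusted p = 0.4).

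DNMT3A, which methylates new sites, gave the largest change among the 9 genes in OCI-Ly1 and had nearly level CPM in TMD8. The OCI-Ly1 values were 11.1, 12 and 13 CPM with DMSO, 12.7, 13.7 and 12.5 CPM at 150 nM and 20.8, 23.5 and 21.3 CPM at 500 nM. The TMD8 values were 65.6, 68.9 and 69.4 CPM with DMSO, 71.1, 69.4 and 72.8 CPM at 150 nM and 65.5, 69.5 and 68.5 CPM at 500 nM. In OCI-Ly1 the 3 libraries at 500 nM lay above all 6 others. The OCI-Ly1 rise at 500 nM was 1.81-fold (log2 fold change 0.86, SE 0.092, adjusted p = 5e-07), and it was called under all 14 alternatives. At 150 nM the change was 0.11 (95% interval -0.10 to 0.31, adjusted p = 0.75). In TMD8 the change at 500 nM was -0.0055 (95% interval -0.11 to 0.10, adjusted p = 0.93) on counts. On log2(TPM + 1) DNMT3A was called lower there (-0.41, adjusted p = 0.00098), on a scale where the median of all genes lay at -0.22, and on median-centred TPM as well (-0.16, adjusted p = 0.0074). At 150 nM it was called higher in TMD8 with library size only (0.15, adjusted p = 0.02).

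DNMT3B, the second de novo enzyme, showed the largest relative fall of the 9 genes in TMD8, from a low level. OCI-Ly1 libraries had 35.2, 34.4 and 37.5 CPM with DMSO, 36.5, 32.4 and 40.8 CPM at 150 nM and 35.2, 37.1 and 31.8 CPM at 500 nM. TMD8 libraries had 11.2, 8.52 and 10.7 CPM with DMSO, 7.32, 6.56 and 6.59 CPM at 150 nM and 5.53, 5.31 and 7.36 CPM at 500 nM. These TMD8 values rest on 152 to 212 counts per library with DMSO and 71 to 84 at 500 nM, and all treated libraries lay below all DMSO libraries. The log2 fold change was -0.57 (SE 0.13, adjusted p = 0.0022) at 150 nM, and at 500 nM the level was 0.591 times that with DMSO (log2 fold change -0.76, SE 0.14, adjusted p = 0.00016). In OCI-Ly1 the change at 500 nM was -0.043 (95% interval -0.22 to 0.13, adjusted p = 0.68). Of the de novo pair, DNMT3A was thus called higher in OCI-Ly1 and DNMT3B lower in TMD8.

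TET1, the least expressed of the dioxygenases, had the lowest TPM of the 9 genes in every group. Its OCI-Ly1 libraries gave 4.16, 5.46 and 4.36 CPM with DMSO, 5.37, 5.4 and 5.11 CPM at 150 nM and 4.47, 5.03 and 3.36 CPM at 500 nM. Its TMD8 libraries gave 5.27, 5.66 and 4.98 CPM with DMSO, 7.03, 5.87 and 8.18 CPM at 150 nM and 5.6, 5.76 and 7.05 CPM at 500 nM. Each OCI-Ly1 library had 93 to 150 counts of it, and each TMD8 library 69 to 165. In TMD8 at 150 nM TET1 was called higher (log2 fold change 0.42, SE 0.14, adjusted p = 0.025), a call that was lost without DMSO replicate 3 (adjusted p = 0.081), without the 150 nM replicate 3 (adjusted p = 0.14), with DESeq2 (adjusted p = 0.06), on log2(TPM + 1) (adjusted p = 0.38) and on median-centred TPM (adjusted p = 0.063). At 500 nM it was 0.20 (95% interval -0.13 to 0.52, adjusted p = 0.28) in TMD8 and -0.11 (95% interval -0.46 to 0.24, adjusted p = 0.59) in OCI-Ly1. On median-centred TPM both were called, at 0.21 (adjusted p = 0.017) in TMD8 and -0.22 (adjusted p = 0.037) in OCI-Ly1.

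TET2, the most abundant TET gene in both lines, had nearly level CPM in TMD8. OCI-Ly1 held 67.9, 58.1 and 69.5 CPM with DMSO, 66.8, 65.6 and 69.9 CPM at 150 nM and 77.3, 72 and 77 CPM at 500 nM. TMD8 held 305, 278 and 272 CPM with DMSO, 288, 277 and 287 CPM at 150 nM and 279, 277 and 287 CPM at 500 nM. In OCI-Ly1 the libraries at 500 nM lay above all the others, and in TMD8 the 3 groups overlapped. The OCI-Ly1 rise at 500 nM passed the test (log2 fold change 0.21, SE 0.067, adjusted p = 0.015), but not without DMSO replicate 2 (adjusted p = 0.11), without the 500 nM replicate 1 (adjusted p = 0.063) or replicate 3 (adjusted p = 0.052), nor on median-centred TPM (adjusted p = 0.34). In TMD8 the change at 500 nM was -0.02 (95% interval -0.12 to 0.084, adjusted p = 0.74) on counts, and -0.37 on log2(TPM + 1), which was called lower (adjusted p = 0.0075).

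TET3 rose stepwise with dose in TMD8, the clearest rise among the 9 genes there. OCI-Ly1 libraries held 33.5, 35.1 and 29.7 CPM with DMSO, 30, 26.5 and 29.4 CPM at 150 nM and 36.9, 36.8 and 40.3 CPM at 500 nM. TMD8 libraries held 120.2, 123 and 122 CPM with DMSO, 142, 151 and 166 CPM at 150 nM and 201, 199 and 207 CPM at 500 nM. Each TMD8 dose group lay above the group before it with no overlap, while in OCI-Ly1 the values at 150 nM were partly below those with DMSO and those at 500 nM above both. In TMD8 the log2 fold change was 0.33 (SE 0.053, adjusted p = 6.7e-05) at 150 nM, and the rise was 1.66-fold at 500 nM (log2 fold change 0.73, SE 0.053, adjusted p = 1.9e-09). The call at 500 nM held under all 14 alternatives, with log2 fold changes from 0.32 to 0.83, whereas that at 150 nM was lost on log2(TPM + 1) (0.15, adjusted p = 0.24). In OCI-Ly1 the rise at 500 nM was smaller (log2 fold change 0.22, SE 0.078, adjusted p = 0.025) and was lost without DMSO replicate 3 (adjusted p = 0.14), without the 500 nM replicate 3 (adjusted p = 0.11) and on median-centred TPM (adjusted p = 0.53).

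MBD2, the methyl-CpG reader of NuRD, was the only 1 of the 9 genes called lower in both lines at 500 nM. Its OCI-Ly1 libraries had 127, 124 and 147 CPM with DMSO, 119.7, 128 and 145 CPM at 150 nM and 110.2, 109.5 and 116 CPM at 500 nM. Its TMD8 libraries had 151, 127 and 126 CPM with DMSO, 113, 117 and 121 CPM at 150 nM and 105, 101 and 107 CPM at 500 nM. In both lines every library at 500 nM lay below every DMSO library, and DMSO held 1 high library in each line. The TMD8 log2 fold change was -0.20 (SE 0.061, adjusted p = 0.013) at 150 nM and -0.37 (SE 0.062, adjusted p = 5.7e-05) at 500 nM. The latter was called under all 14 alternatives, and the former was lost with library size as the only scaling (adjusted p = 0.11), on log2(TPM + 1) (adjusted p = 0.067) and in a fit of the 2 groups alone (adjusted p = 0.065). The OCI-Ly1 fall at 500 nM (log2 fold change -0.25, SE 0.073, adjusted p = 0.0089) was lost without DMSO replicate 3 (adjusted p = 0.062), with library size only (adjusted p = 0.073) and on log2(TPM + 1) (adjusted p = 0.26).

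**Figure D3:**
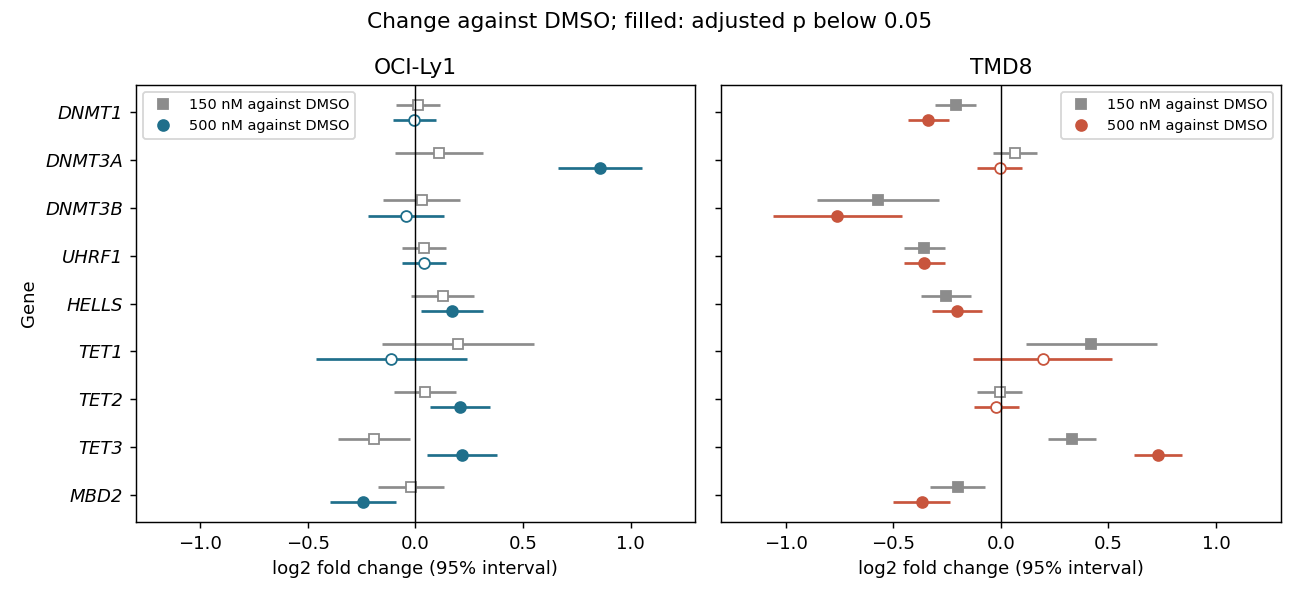
log2 fold change against DMSO with its 95% interval for each of the 9 genes, at 150 nM (squares) and 500 nM (circles), in OCI-Ly1 (left) and TMD8 (right); filled symbols have an adjusted p under 0.05. At 150 nM no OCI-Ly1 symbol is filled, while 7 TMD8 symbols are.

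The step from 150 nM to 500 nM was tested on its own. In OCI-Ly1 DNMT3A (log2 fold change 0.75, SE 0.092, adjusted p = 3.2e-06) and TET3 (log2 fold change 0.41, SE 0.078, adjusted p = 0.00035) were higher at 500 nM and MBD2 (log2 fold change -0.23, SE 0.073, adjusted p = 0.017) was lower. That is 2 of 9 higher and 1 of 9 lower, against 25.1% and 21.1% of all genes, and 3 higher and 0 lower with library size only or on log2(TPM + 1) and 2 and 2 on median-centred TPM. The MBD2 step was lost without the 150 nM replicate 3 (adjusted p = 0.1) and without the 500 nM replicate 1 (adjusted p = 0.055) or replicate 2 (adjusted p = 0.056), and with library size only (adjusted p = 0.11) or on log2(TPM + 1) (adjusted p = 0.25). The TET2 step, 0.16 (SE 0.067, adjusted p = 0.055), was called higher with library size only (adjusted p = 0.007), on log2(TPM + 1) (adjusted p = 0.044), with the replicate block (adjusted p = 0.026) and with the 2 groups alone (adjusted p = 0.037), and the TET1 step was called lower on median-centred TPM (-0.28, adjusted p = 0.017). In TMD8 TET3 was higher at 500 nM than at 150 nM (log2 fold change 0.40, SE 0.053, adjusted p = 2.7e-05) and DNMT1 lower (log2 fold change -0.13, SE 0.045, adjusted p = 0.044), 1 of 9 each against 13.7% and 15.0% of all genes. On log2(TPM + 1) the TMD8 split was 0 higher and 3 lower, and the TET3 step was not called (0.17, adjusted p = 0.21). DESeq2, library size only and median-centred TPM each gave 1 higher and 2 lower. The DNMT1 step was lost without the 150 nM replicate 1 (adjusted p = 0.069) or replicate 2 (adjusted p = 0.12), and without any 1 of the 3 libraries at 500 nM (adjusted p = 0.11, 0.17 and 0.087). With the replicate block the DNMT1 step also lost its call (-0.13, adjusted p = 0.05) while that of MBD2 gained one (-0.17, adjusted p = 0.044), and MBD2 was likewise called lower with DESeq2 (adjusted p = 0.043), library size only (adjusted p = 0.045), no filter (adjusted p = 0.0035), the 2 groups alone (adjusted p = 0.0098) and log2(TPM + 1) (adjusted p = 0.035). The DNMT3A step in TMD8 was called lower on log2(TPM + 1) (-0.31, adjusted p = 0.018) and median-centred TPM (adjusted p = 0.019).

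Whether the lines differed in their response was tested directly, by subtracting the TMD8 change from the OCI-Ly1 change. At 150 nM 4 of the 9 genes had a higher change in OCI-Ly1 and 1 a lower, against 15.0% and 8.33% of all genes. The higher 4 were DNMT3B at 0.61 (SE 0.16, adjusted p = 0.0065), UHRF1 at 0.40 (SE 0.07, adjusted p = 0.00016), HELLS at 0.39 (SE 0.091, adjusted p = 0.0026) and DNMT1 at 0.23 (SE 0.072, adjusted p = 0.021). These 4 were also called lower in TMD8 at 150 nM, as was MBD2, whose difference was 0.19 (SE 0.10, adjusted p = 0.2). TET3 had the lower difference, at -0.52 (SE 0.093, adjusted p = 0.00023). At 500 nM DNMT3A and TET2 joined the higher genes, which made 6 higher and 1 lower against 28.2% and 18.1% of all genes. DNMT3A differed most, by 0.89 (SE 0.094, adjusted p = 2.4e-08), followed by DNMT3B with 0.75 (SE 0.17, adjusted p = 0.00067). UHRF1 with 0.43 (SE 0.07, adjusted p = 2e-05), HELLS with 0.40 (SE 0.091, adjusted p = 0.00072), DNMT1 with 0.36 (SE 0.072, adjusted p = 2e-04) and TET2 with 0.26 (SE 0.086, adjusted p = 0.016) made up the rest. TET3 had the only lower difference called, -0.48 (SE 0.091, adjusted p = 9.9e-05), and it was not called on log2(TPM + 1), either at 150 nM (-0.28, adjusted p = 0.091) or at 500 nM (-0.034, adjusted p = 0.82). On that scale the splits were 5 higher and 0 lower at 150 nM and 7 higher and 0 lower at 500 nM, where the median of all genes lay at 0.38. On median-centred TPM at 500 nM 5 were higher and 2 lower, and DNMT3B was not called (adjusted p = 0.13). Without OCI-Ly1 150 nM replicate 1 the DNMT1 difference at 150 nM was lost (adjusted p = 0.057), as it was with library size only (adjusted p = 0.11), and without OCI-Ly1 DMSO replicate 2 that of TET2 at 500 nM (adjusted p = 0.059). For MBD2 the difference at 500 nM was 0.15 (95% interval -0.059 to 0.37, adjusted p = 0.23), though it was called on log2(TPM + 1) (0.53, adjusted p = 0.01). For TET1 it was -0.28 (95% interval -0.75 to 0.19, adjusted p = 0.34), and it was called on median-centred TPM (-0.40, adjusted p = 0.0014).

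**Figure D4:**
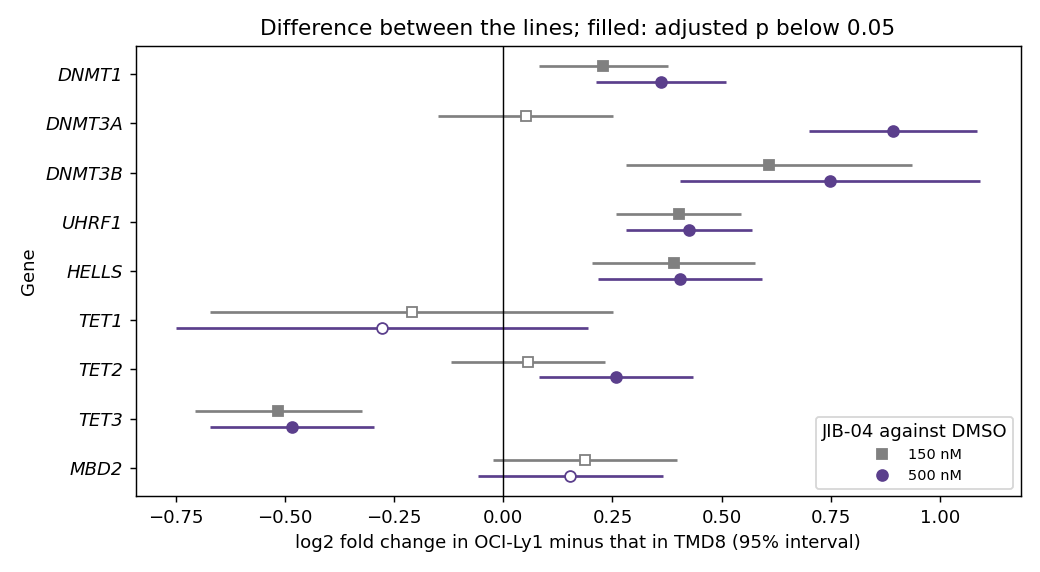
Difference between the lines in the log2 fold change against DMSO (OCI-Ly1 minus TMD8) with its 95% interval, at 150 nM (grey squares) and 500 nM (purple circles); filled symbols have an adjusted p under 0.05. DNMT1, DNMT3B, UHRF1 and HELLS lie right of 0 at both doses, TET3 lies left on this count scale, and DNMT3A lies at 0.89 at 500 nM.

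The genes around these 9 were read from lists by role, with counts and medians at 500 nM against DMSO. Over all genes 27.7% were called higher and 25.9% lower in OCI-Ly1 (median -0.0033), and 29.9% higher and 30.7% lower in TMD8 (median 0.041), and each list is read against those shares. Among 10 tested maintenance cofactors 3 were called higher and 2 lower in OCI-Ly1 (median 0.0069), and 4 higher and 4 lower in TMD8 (median -0.11), in OCI-Ly1 near the shares of all genes (27.7% and 25.9%) and in TMD8 a little above them (29.9% and 30.7%). CDCA7, which activates HELLS, fell in TMD8 from 93 ± 3.4 to 60.6 ± 3.2 CPM (mean ± SD, n = 3, log2 fold change -0.62, SE 0.058, adjusted p = 4.3e-08), and in OCI-Ly1 its change was 0.037 (SE 0.047, adjusted p = 0.52), called higher with library size only (0.12, adjusted p = 0.031) and on log2(TPM + 1) (0.17, adjusted p = 0.027). ZBTB24, a regulator of CDCA7, also fell in TMD8 (log2 fold change -0.55, SE 0.07, adjusted p = 2.3e-06), with 0.0093 (SE 0.056, adjusted p = 0.9) in OCI-Ly1. The related CDCA7L fell in OCI-Ly1 (log2 fold change -0.85, SE 0.059, adjusted p = 1.7e-09) and had -0.076 (SE 0.052, adjusted p = 0.22) in TMD8, where it was called lower on log2(TPM + 1) (-0.44, adjusted p = 0.0021) and on median-centred TPM (-0.19, adjusted p = 0.0098). UHRF2, the paralogue of UHRF1, rose in OCI-Ly1 (log2 fold change 0.56, SE 0.056, adjusted p = 1.7e-07) and, on counts, in TMD8 (log2 fold change 0.19, SE 0.049, adjusted p = 0.0025), where log2(TPM + 1) turned its sign to -0.18 (adjusted p = 0.15) and median-centred TPM lost the call (0.075, adjusted p = 0.2).

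Another 8 genes came from the families of methyl-CpG readers, listed by family and not by binding, so a member need not read methylation. Of these 3 rose and 1 fell in OCI-Ly1 (median 0.15), and 3 rose and 2 fell in TMD8 (median 0.059). In TMD8 both lay near the shares of all genes (29.9% and 30.7%), and in OCI-Ly1 the share called lower was under the 25.9% of all genes. MBD6 rose in both lines, from 6.13 ± 0.55 to 12.7 ± 0.22 CPM in OCI-Ly1 (log2 fold change 1.04, SE 0.12, adjusted p = 7.8e-07). In TMD8 it rose from 29.8 ± 4.5 to 65.4 ± 4.8 CPM (log2 fold change 1.12, SE 0.11, adjusted p = 5.5e-08). MBD3, the NuRD subunit that resembles MBD2, fell in TMD8 (log2 fold change -0.53, SE 0.046, adjusted p = 2.4e-08) and had 0.18 (SE 0.076, adjusted p = 0.056) in OCI-Ly1. There MBD3 was called higher under 8 alternatives, among them DESeq2 (adjusted p = 0.048), the replicate block (adjusted p = 0.018) and log2(TPM + 1) (0.32, adjusted p = 0.0098). MBD1 rose in OCI-Ly1 (log2 fold change 0.39, SE 0.058, adjusted p = 2e-05) and had 0.088 (SE 0.046, adjusted p = 0.11) in TMD8, where log2(TPM + 1) gave -0.24 (adjusted p = 0.047). The same TMD8 value was called higher with library size only (0.18, adjusted p = 0.0012), in a fit of the 2 groups alone (adjusted p = 0.033) and without DMSO replicate 1 (adjusted p = 0.042). Of the NuRD subunits 1 of 11 was called higher and 9 of 11 lower in each line, against 25.9% of all genes lower in OCI-Ly1 and 30.7% in TMD8, with medians of -0.27 in OCI-Ly1 and -0.34 in TMD8. CHD4, its main ATPase, fell in OCI-Ly1 (log2 fold change -0.38, SE 0.044, adjusted p = 9.8e-07) and in TMD8 (log2 fold change -0.79, SE 0.046, adjusted p = 1.4e-10). HDAC2, a deacetylase, had -0.27 (SE 0.053, adjusted p = 0.00032) in OCI-Ly1, lost on log2(TPM + 1) (adjusted p = 0.11), and -0.74 (SE 0.049, adjusted p = 6.9e-10) in TMD8. CHD3 fell in OCI-Ly1 (log2 fold change -0.48, SE 0.048, adjusted p = 2.3e-07), and its TMD8 call (log2 fold change -0.13, SE 0.048, adjusted p = 0.027) was lost without DMSO replicate 2 (adjusted p = 0.1) or replicate 3 (adjusted p = 0.074), without any 1 of the 3 libraries at 500 nM (adjusted p = 0.078, 0.067 and 0.06) and with library size only (adjusted p = 0.52).

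Downstream of the TET enzymes, 12 genes of base excision and TET partners had 3 higher and 5 lower in OCI-Ly1 (median -0.029) and 6 higher and 4 lower in TMD8 (median 0.13). The share higher in OCI-Ly1 and the share lower in TMD8 were near those of all genes (27.7% and 30.7%), and the other shares were above them (25.9% lower in OCI-Ly1, 29.9% higher in TMD8). TDG, the glycosylase that removes oxidised methylcytosine, fell in OCI-Ly1 (log2 fold change -0.69, SE 0.072, adjusted p = 3.6e-07) and in TMD8 (log2 fold change -0.74, SE 0.062, adjusted p = 1.4e-08). APEX1, which cuts the abasic site that glycosylases leave, fell in OCI-Ly1 (log2 fold change -0.70, SE 0.058, adjusted p = 1.8e-08) and in TMD8 (log2 fold change -0.38, SE 0.045, adjusted p = 1e-06). GADD45A, a stress-induced protein also linked to demethylation, rose in TMD8 from 3.21 ± 0.39 to 27.6 ± 0.68 CPM (log2 fold change 3.11, SE 0.13, adjusted p = 2.3e-12), and had 0.18 (SE 0.082, adjusted p = 0.078) in OCI-Ly1, called higher there with library size only (0.26, adjusted p = 0.0096), on log2(TPM + 1) (0.32, adjusted p = 0.02) and without DMSO replicate 3 (adjusted p = 0.018). NEIL1, another glycosylase, rose in TMD8 (log2 fold change 0.82, SE 0.18, adjusted p = 0.00085). Its OCI-Ly1 value was 0.19 (SE 0.069, adjusted p = 0.03), a call lost without DMSO replicate 1 or 2 (adjusted p = 0.1 and 0.077) or without any 1 of the 3 libraries at 500 nM (adjusted p = 0.071, 0.073 and 0.06), with no filter (adjusted p = 0.076) and on median-centred TPM (adjusted p = 0.22).

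Of 14 tested genes that make or remove the methyl donor and 2-oxoglutarate, 6 were called lower in each line, and 1 higher in OCI-Ly1 and 3 in TMD8. Over all genes 25.9% and 30.7% were called lower and 27.7% and 29.9% higher. Their medians were -0.03 in OCI-Ly1 and -0.11 in TMD8. MAT2A, which makes S-adenosylmethionine, the methyl donor of the DNMT enzymes, fell in OCI-Ly1 (log2 fold change -0.46, SE 0.047, adjusted p = 3.2e-07) and in TMD8 (log2 fold change -0.77, SE 0.052, adjusted p = 9.2e-10). IDH3A, a subunit of the mitochondrial enzyme that makes 2-oxoglutarate, fell in OCI-Ly1 (log2 fold change -0.47, SE 0.062, adjusted p = 6.2e-06) and in TMD8 (log2 fold change -1.10, SE 0.068, adjusted p = 2.4e-10). IDH2 changed by -0.69 (SE 0.056, adjusted p = 1.5e-08) and -0.39 (SE 0.06, adjusted p = 2e-05) in OCI-Ly1 and TMD8, and OGDH, which consumes 2-oxoglutarate, by -0.58 (SE 0.057, adjusted p = 1.3e-07) and -0.70 (SE 0.048, adjusted p = 9.6e-10).

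The AlkB family, dioxygenases that like the TET enzymes use iron and 2-oxoglutarate on nucleic acids, had 3 of 8 tested genes higher and 0 lower in OCI-Ly1 (median 0.11), and 2 higher and 3 lower in TMD8 (median -0.15). Against all genes (27.7% higher and 25.9% lower in OCI-Ly1, 29.9% and 30.7% in TMD8) the TMD8 counts were near the background. ALKBH5, an RNA demethylase, rose in OCI-Ly1 (log2 fold change 0.47, SE 0.051, adjusted p = 5.4e-07) and fell in TMD8 (log2 fold change -0.20, SE 0.049, adjusted p = 0.0014). ALKBH8, which modifies transfer RNA, rose in OCI-Ly1 (log2 fold change 0.54, SE 0.071, adjusted p = 5.9e-06) and had -0.20 (SE 0.085, adjusted p = 0.051) in TMD8, where it was called lower on log2(TPM + 1) (-0.39, adjusted p = 0.0011) and on median-centred TPM (-0.14, adjusted p = 0.046). ALKBH1 and ALKBH2 fell in TMD8, by log2 fold changes of -0.36 (SE 0.077, adjusted p = 0.00057) and -0.56 (SE 0.093, adjusted p = 4.4e-05), and had 0.15 (SE 0.075, adjusted p = 0.1) and 0.038 (SE 0.086, adjusted p = 0.73) in OCI-Ly1. ALKBH1 was called higher in OCI-Ly1 with library size only (0.24, adjusted p = 0.013) and on log2(TPM + 1) (0.26, adjusted p = 0.0072).

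Because DNMT1, UHRF1 and HELLS are transcribed mainly in dividing cells, S-phase and mitotic genes were set beside them. In TMD8 at 500 nM 4 of 20 S-phase genes were called higher and 12 lower (median -0.17), and in OCI-Ly1 7 higher and 5 lower (median 0.10). Over all genes 30.7% were called lower in TMD8, and the OCI-Ly1 counts were near the shares of all genes (27.7% and 25.9%). GINS1, a subunit of the replicative helicase, fell in TMD8 (log2 fold change -0.74, SE 0.056, adjusted p = 3.5e-09) and in OCI-Ly1 (log2 fold change -0.38, SE 0.061, adjusted p = 5.7e-05). CCNE2, a G1/S cyclin, rose in both, by 0.52 (SE 0.07, adjusted p = 7e-06) in OCI-Ly1 and 1.0 (SE 0.074, adjusted p = 2.5e-09) in TMD8. CDC45, another helicase subunit, rose in OCI-Ly1 (log2 fold change 0.42, SE 0.05, adjusted p = 2e-06). Its TMD8 value was -0.15 (SE 0.063, adjusted p = 0.041), lost without DMSO replicate 1 or 3 (adjusted p = 0.095 and 0.085), without the 500 nM replicate 1 or 3 (adjusted p = 0.23 and 0.076), with DESeq2 (adjusted p = 0.057) and with library size only (adjusted p = 0.37). The 12 mitotic genes were all called lower in both lines, against 25.9% and 30.7% of all genes, with medians of -0.73 in OCI-Ly1 and -1.63 in TMD8. PLK1, a mitotic kinase, had log2 fold changes of -1.46 (SE 0.066, adjusted p = 4e-12) in OCI-Ly1 and -2.93 (SE 0.095, adjusted p = 1.8e-13) in TMD8. CCNB1, a mitotic cyclin, had -1.27 (SE 0.048, adjusted p = 3.3e-13) in OCI-Ly1 and -2.45 (SE 0.089, adjusted p = 5.5e-13) in TMD8. CDC20, an activator of mitotic exit, had -1.16 (SE 0.06, adjusted p = 3e-11) in OCI-Ly1 and -2.59 (SE 0.10, adjusted p = 1.1e-12) in TMD8. The part of such shifts in the changes of DNMT1, UHRF1 and HELLS was not tested.

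Germline genes that promoter methylation is known to silence in somatic cells stayed low. Of 19 listed genes, 8 in OCI-Ly1 and 11 in TMD8 had at most 3 counts in every DMSO library, and at 500 nM this held for 6 and 10. The limit of 3 counts is not scaled for depth. OCI-Ly1 libraries held 17579732 to 25545170 estimated counts with DMSO and 24830313 to 32651115 at 500 nM. Those of TMD8 held 16790982 to 20509500 with DMSO and 9550092 to 14803022 at 500 nM. The summed level of the 19 was 17.4 to 18.7 CPM per OCI-Ly1 library with DMSO and 12.5 to 15.5 CPM at 500 nM, and in TMD8 5.2 to 7.04 CPM with DMSO and 7.97 to 9.71 CPM at 500 nM. The sum was thus lower at 500 nM in OCI-Ly1 and higher in TMD8, with no overlap in either. Among the 8 genes tested in OCI-Ly1 1 was called higher and 3 lower (median -0.48), and among the 5 tested in TMD8 2 higher and 0 lower (median 0.15). With so few genes tested, these counts are not set apart from the shares of all genes (27.7% and 25.9% in OCI-Ly1, 29.9% and 30.7% in TMD8). MAGEB2, a cancer-testis antigen, rose in OCI-Ly1 from 0.493 ± 0.34 to 2.04 ± 0.23 CPM (log2 fold change 2.14, SE 0.37, adjusted p = 0.00011), on 7 to 15 and 46 to 74 counts per library. TDRD6, a germ-cell tudor protein, fell there from 3.66 ± 0.23 to 1.39 ± 0.16 CPM (log2 fold change -1.39, SE 0.19, adjusted p = 7.6e-06). HORMAD1, a meiotic chromosome protein, rose in TMD8 (log2 fold change 1.5, SE 0.30, adjusted p = 0.00027), on 8 to 11 counts per library with DMSO and 16 to 20 at 500 nM.

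**Figure D5:**
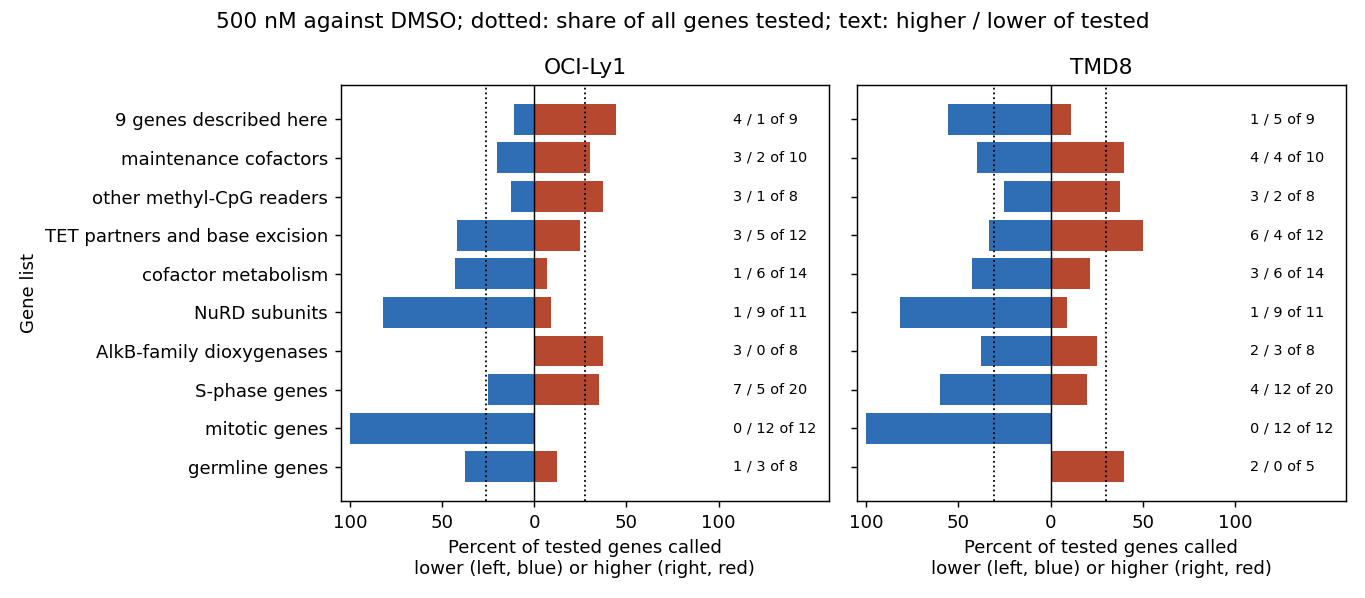
Percent of the tested genes of each list that were called higher (red, right) or lower (blue, left) at 500 nM against DMSO in OCI-Ly1 (left panel) and TMD8 (right panel); dotted lines mark the shares of all genes tested, and the numbers give higher / lower of tested. Mitotic genes and NuRD subunits lie on the lower side in both lines, and on this count scale the 9 genes described here lie on the higher side in OCI-Ly1 and the lower side in TMD8. The OCI-Ly1 split of the 9 genes depended on single libraries, and it was 1 higher and 1 lower without 500 nM replicate 3.

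The genes closest in pattern to each of the 9 were ranked by Pearson r of log2 CPM, centred on each line's mean, over the 18 libraries and 14482 genes, as a description without a test, since all genes share the libraries and their depth. TET3 came closest to MARCH8 (r = 0.97) and HECTD4 (r = 0.96), and DNMT3A to BATF3 and IRF2BP2 (r = 0.97 for each). For DNMT1 these were ACTN4 and DAXX (r = 0.97 for each), for UHRF1 SUPV3L1 and POLR2C (r = 0.94 for each), and for HELLS USP45 (r = 0.92) and BRCA2 (r = 0.91). DNMT3B had DDX42 and LAP3 (r = 0.92 for each), MBD2 had KRIT1 and PBRM1 (r = 0.94 for each), and TET2 had PCNX and SP2 (r = 0.90 for each). TET1 had the weakest partners, EPHB3 (r = 0.72) and SNORD2 (r = 0.70). No gene among the 9 was among the closest pair of another.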

How the data were processed

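RNA was measured by bulk RNA-seq in 18 libraries, 3 for each of 3 groups in OCI-Ly1 and TMD8. The authors deposited estimated counts per gene symbol, made per the submitters' processing notes with kallisto 0.46.0, R 4.3.1 and DESeq2 1.40.2 (build named: hg19, role not given). The authors also deposited TPM, used here for levels between genes and in alternatives. The step from transcripts to genes and the strand of counting are not given in the sources used here, so a gene and an overlapping antisense transcript cannot be told apart.

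Estimated counts were rounded to whole numbers and fitted with edgeR 4.0.16 in R 4.3.3: TMM factors, the filterByExpr filter by group, the quasi-likelihood test, 9 libraries of a line per fit and 18 for comparisons between lines. Benjamini-Hochberg adjustment ran over every gene tested in a comparison, with calls made at 0.05. CPM are TMM-normalised within a line; CPM and TPM of the lines come from separate tables. Alternatives used DESeq2 1.42.0, library size only, no filter, limma 3.58.1 on log2(TPM + 1), log2(TPM + 0.1) and median-centred log2(TPM + 1), a replicate block, 2 groups only, and each library left out. The fits were tested on simulated data with 200 genes changed at 500 nM. In the real data 8387 genes were called at 500 nM against DMSO in OCI-Ly1 and 9324 in TMD8. The simulation therefore does not test the TMM scaling under so broad a change.

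The 9 genes and the lists were chosen with earlier results of these data known. From each other list at most 4 genes were named, the 2 called genes in each line with the largest absolute change at 500 nM and at least 1 CPM in some group. For each of the 9 genes the 2 most similar genes were named. Within groups 18 pairs of libraries had a chi-square per degree of freedom of 1.62 to 10.9, so none agreed within sampling noise. The labels name no molecular identifiers, so depth bears on counting error only. No samples were left out.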

Additional observations from a re-analysis of the deposited data

Results flagged for a closer look

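The change against DMSO differed between the lines for several of the genes, by the test of the difference itself (OCI-Ly1 minus TMD8, log2 scale, edgeR, adjusted p under 0.05). At 150 nM these were DNMT1 (0.23), DNMT3B (0.61), UHRF1 (0.40), HELLS (0.39) and TET3 (-0.52). At 500 nM they were DNMT1 (0.36), DNMT3A (0.89), DNMT3B (0.75), UHRF1 (0.43), HELLS (0.40), TET2 (0.26) and TET3 (-0.48). The differences of DNMT1, DNMT3B and UHRF1 at both doses go with falls in TMD8, and those of DNMT3A and TET2 with rises in OCI-Ly1. HELLS at 500 nM was called lower in TMD8 (-0.20) and higher in OCI-Ly1 (0.17), and at 150 nM it was called lower in TMD8 only. TET3 rose more in TMD8 at 500 nM, while at 150 nM it rose in TMD8 (0.33) and had an uncalled -0.19 in OCI-Ly1. Neither TET3 difference was called on log2(TPM + 1).

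Of the 31 genes named from the other lists, 27 also differed between the lines at 500 nM, 18 with a higher change in OCI-Ly1 and 9 with a lower, against 28.2% and 18.1% of all genes. These genes were named for a large change at 500 nM in one line or the other, which favours a difference between the lines, so the count is a description and supports nothing. Among the higher were the mitotic genes CCNB1 (1.21), CDC20 (1.46) and PLK1 (1.5), which fell further in TMD8. The maintenance cofactors in this direction were UHRF2 (0.40), CDCA7 (0.69) and ZBTB24 (0.59), and the genes of the reader families MBD1 (0.33) and MBD3 (0.73). The NuRD and metabolic genes were MAT2A (0.34), IDH3A (0.67), CHD4 (0.44) and HDAC2 (0.50). The replication genes were CDC45 (0.60) and GINS1 (0.40), and the AlkB genes ALKBH1 (0.54), ALKBH2 (0.63), ALKBH5 (0.70) and ALKBH8 (0.77). A lower change in OCI-Ly1 was found for CDCA7L (-0.74), APEX1 (-0.29), NEIL1 (-0.60) and GADD45A (-2.91), and for IDH2 (-0.26), CHD3 (-0.32) and CCNE2 (-0.46). It was also found for HORMAD1 (-1.81) and TDRD6 (-3.15), fitted values that rest on few counts: HORMAD1 had at most 12 counts in an OCI-Ly1 library with DMSO, and TDRD6 at most 4 in any TMD8 library, so these differences depend on the prior count and bound nothing.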

How the results depend on the processing

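The 9 genes in 9 comparisons gave 81 results and 1224 alternatives. Direction and call held in 1127, 52 lost a call, 39 gained one and 6 turned direction; a change of sign between values called in neither fit was not counted as a turn. For the genes named from other lists 773 of 826 held. The turns were in OCI-Ly1 against TMD8 with DMSO, on log2(TPM + 1) and log2(TPM + 0.1), for HELLS (0.42 and 0.43), TET1 (0.21 and 0.54) and MBD2 (0.80 and 0.83), and in TMD8 at 500 nM for UHRF2 (-0.18 and -0.19) and MBD1 (-0.24 and -0.25). The cause was not tested. The count of genes called among the 9 moved by over 1.5 times in 3 comparisons. In TMD8 at 150 nM it was 4 on log2(TPM + 1) and log2(TPM + 0.1), against 7, and 6 on median-centred TPM. In OCI-Ly1 at 500 nM it was 3 on median-centred TPM, against 5, and 2 to 4 with 1 library left out. For TMD8 at 500 nM against 150 nM it was 1 to 2 with 1 library left out, against 2. Over all genes at 150 nM in OCI-Ly1, 139 genes were called by edgeR, 240 by DESeq2, 323 without the filter, 61 on log2(TPM + 1) and 65 to 339 with 1 library left out.

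Same-numbered libraries deviated together weakly at most (18 pairs, r from -0.045 to 0.12, 2 of them above 0.1). Both pairs above 0.1 joined OCI-Ly1 DMSO with OCI-Ly1 150 nM. Such small correlations over all genes can neither show nor exclude that the numbers pair libraries. The main fits used no pairing. With a replicate block 0, 5, 4, 7, 6, 2, 5, 7 and 8 of the 9 genes were called, in the order OCI-Ly1 150 nM and 500 nM against DMSO, 500 nM against 150 nM, the same for TMD8, the line difference at 150 nM and 500 nM, and the DMSO groups. In TMD8 at 500 nM against 150 nM the block lost DNMT1 and gained MBD2. It gained TET2 in OCI-Ly1 at 500 nM against 150 nM and MBD2 between the DMSO groups, and for genes of other lists MBD3 in OCI-Ly1. Depth limits TET1 and, in TMD8, DNMT3B, which had 69 to 165 and 71 to 212 counts per library.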
